A study of Mus musculus with 6 samples.

Results

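Endothelial cells line every blood vessel of the heart, and the 37 genes described here mark that lining, its capillary, arterial, venous and lymphatic branches, and its inflammatory activation. They were chosen by gene symbol, all 37 had a row among the 35618 genes of the count table, and all 37 passed the filter on low counts, which left 16591 genes. The 6 RNA libraries came from the myocardium of mice aged 6 to 8 weeks, 3 days after an intraperitoneal dose of doxorubicin, an anthracycline chemotherapy drug, at 20 mg/kg. Of these libraries, 3 came from mice with floxed Gsdmd alleles and 3 from GSDMD-CKO mice, in which Gsdmd, the gene for the pore-forming protein gasdermin D, was knocked out in the myocardium. Mice of both genotypes had received doxorubicin, hearts without it were not analysed here, and the labels name neither the recombinase driver nor the animal behind each library.

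Vascular endothelial growth factor (VEGF) acts through the receptors encoded by Kdr and Flt1 to build and keep the capillary bed, angiopoietin signals through Tek to stabilise it, and delta and Notch proteins set the arterial fate. Heart capillaries supply the muscle with fatty acids, for which their endothelium carries the lipoprotein lipase anchor Gpihbp1 and the fatty acid binding protein Fabp4. Inflamed endothelium displays selectins and the adhesion molecules Icam1 and Vcam1, to which leukocytes attach.

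The libraries held 17279147 to 18875902 counted reads. Gsdmd measured 7613 ± 811 CPM (SD, n = 3) with floxed alleles and 108 ± 29.7 CPM (SD, n = 3) after knockout, where CPM is the count relative to the total of the library after TMM scaling. Knockout libraries 1 and 3 stood at opposite ends of the set: they correlated least of all pairs on log2 CPM, at 0.899 across genes, which are not independent replicates. Knockout library 1 held the highest level of 26.7% of all genes tested and knockout library 3 the lowest of 23.7%. Mitochondrially encoded genes took 18.1% of the counts in knockout library 1, 10.2% in knockout library 2 and 5.48% in knockout library 3, against 6.70% to 11.2% in the floxed libraries. The share of all counts that fell on the 37 endothelial genes was 0.517%, 0.592% and 0.508% in floxed libraries 1, 2 and 3 and 0.990%, 0.611% and 0.309% in knockout libraries 1, 2 and 3. The share was thus both highest and lowest in a knockout library. In RNA from whole tissue, fewer endothelial cells and less RNA per endothelial cell cannot be told apart.

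The comparison asked how the endothelial transcripts of doxorubicin-treated hearts differed with myocardial Gsdmd. None of the endothelial genes passed the test over all genes. Tested with edgeR (quasi-likelihood F test, p-values adjusted by Benjamini-Hochberg over all genes), 0 of the 37 passed an adjusted p of 0.05, with values from 0.662 to 0.995, where 0.0121% of all genes passed. At an unadjusted p under 0.05 there was 1 endothelial gene, Sox18, against 7.02% of all genes. DESeq2 called 0 of the 37 and 1.46% of all genes, with 2 endothelial genes at an unadjusted p under 0.05, and limma-voom called 0 of the 37 and 0.00603% of all genes, with 1 at an unadjusted p under 0.05. The knockout libraries lay all above or all below the floxed libraries for 0 of the 37, a separation that 11.8% of all genes showed. The median log2 fold change, knockout minus floxed, was 0.32 over the 37 genes and 0.03 over all genes tested. Of the 37, 31 had positive and 6 negative values, while limma-voom gave positive values for 26.

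The spread within the knockout group was the main feature of these genes. For 32 of the 37 the ratio of the highest to the lowest library was larger among the knockout than among the floxed libraries, as it was for 74.0% of all genes. The median ratio was 3.05 among the knockout and 1.55 among the floxed libraries for the endothelial genes, against 1.70 and 1.39 for all genes tested. Knockout library 1 was the highest of all 6 libraries for 25 of the 37 and knockout library 3 the lowest for 26. Both held for 25 of the 37 and for 13.4% of all genes. The 95% intervals of the log2 fold changes were between 0.998 and 5.76 log2 units wide, and differences inside them were not detectable with these libraries.

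**Figure D1:**
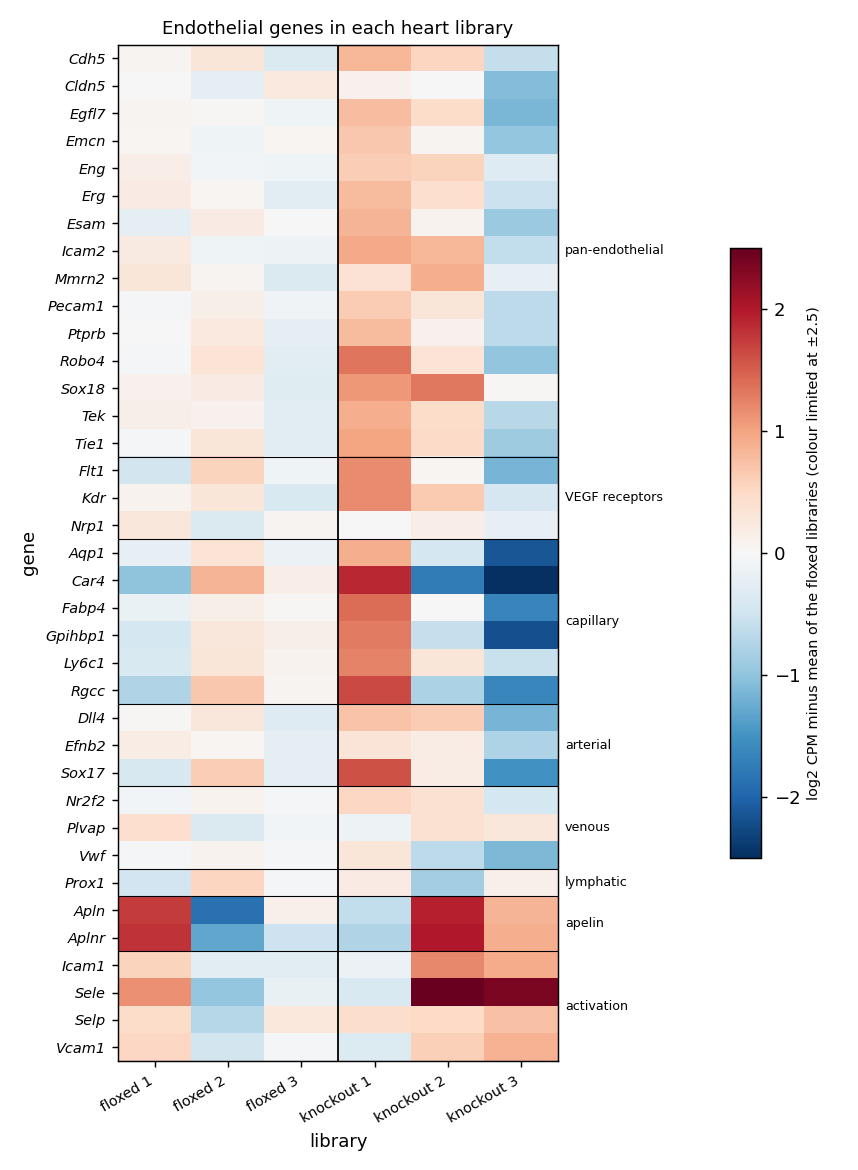
Level of each of the 37 endothelial genes (rows, grouped by class) in each library (columns), as log2 CPM relative to the floxed mean, with red above and blue below it. Most rows are red in knockout library 1 and blue in knockout library 3, while the apelin and activation rows are red in floxed library 1 and knockout libraries 2 and 3.

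Most of the 15 genes grouped here as pan-endothelial, that is as general endothelial markers, showed this order. Knockout library 1 was the highest for 12 of them and knockout library 3 the lowest for 13, and 14 of the 15 log2 fold changes were positive, with a median of 0.34 and 0 genes called. Pecam1 (chromosome 11, 106654217 to 106750628, minus strand, GRCm38), the adhesion molecule CD31 at endothelial cell borders, measured 247, 283 and 239.9 CPM in floxed libraries 1, 2 and 3 and 397, 317 and 163 CPM in knockout libraries 1, 2 and 3. Its floxed libraries lay close together, below knockout library 2 and above knockout library 3. Its log2 fold change was 0.19 (SE 0.33, 95% interval -0.59 to 0.97). Cdh5, the cadherin of endothelial adherens junctions, measured 196, 230.4 and 145 CPM in the floxed and 332, 271 and 125 CPM in the knockout libraries, in the same order. Tie1, an orphan receptor of the angiopoietin pathway, gave 156, 196 and 131 CPM against 313, 222 and 86.0 CPM. Tek, the angiopoietin receptor TIE2, gave 64.7, 62.3 and 48.7 CPM against 109, 79.4 and 35.7 CPM. Each of these genes thus placed 2 knockout libraries above the floxed range and 1 below it.

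Eng, the TGF-beta coreceptor endoglin, had the narrowest knockout range of the 15, with 345, 292 and 285 CPM in the floxed and 467, 453 and 245 CPM in the knockout libraries. Egfl7, a secreted vascular matrix protein whose exons overlap Agpat2 on the opposite strand, measured 302, 293 and 265 CPM against 491, 393 and 129.8 CPM. Robo4, a guidance receptor that limits vessel leak, had the widest knockout range, at 232, 115 and 46.5 CPM, against 88.3, 116 and 74.9 CPM in the floxed libraries. Ptprb, the endothelial receptor phosphatase that acts on TIE2, gave 132, 155 and 109.9 CPM against 228, 142 and 83.4 CPM. All of these were highest in knockout library 1 and lowest in knockout library 3.

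Sox18, a transcription factor of developing blood and lymph vessels, had the smallest p of the 37. It measured 56.0, 59.8 and 42.4 CPM in the floxed and 111, 130.3 and 53.6 CPM in the knockout libraries. Knockout libraries 1 and 2 were above all floxed libraries, and knockout library 3 was inside their range. Its log2 fold change was 0.90 (SE 0.34, 95% interval 0.10 to 1.69), with edgeR adjusted p = 0.662 and an unadjusted 0.0321. On the deposited FPKM values (fragment counts divided by gene length and library total), Sox18 was the single endothelial gene whose knockout libraries all lay above the floxed ones, as 5.43% of all genes did on that scale. Cldn5, the tight junction protein claudin 5, was the 1 gene of this class with a negative value. It measured 61.9, 52.6 and 73.2 CPM in the floxed and 66.9, 62.6 and 29.2 CPM in the knockout libraries, so only knockout library 3 left the floxed range.

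The remaining genes of this class had knockout ranges of the same kind. Erg, an ETS transcription factor that maintains endothelial identity, measured 30.1 to 41.5 CPM in the floxed and 24.9 to 62.7 CPM in the knockout libraries. Emcn, the sialomucin endomucin, measured 48.8 to 54.6 and 26.8 to 83.9 CPM. Esam, a junctional adhesion molecule, measured 119 to 159 and 72.6 to 250.1 CPM. Icam2, a constitutive ligand for leukocyte integrins, measured 43.7 to 55.6 and 31.0 to 91.7 CPM, with knockout libraries 1 and 2 above the floxed range. Mmrn2, a matrix protein that binds VEGF, measured 47.5 to 75.6 and 53.2 to 116 CPM, and was highest in knockout library 2.

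The VEGF receptors followed the pan-endothelial genes except for Nrp1. Kdr (chromosome 5, 75932827 to 75978458, minus strand, GRCm38), the main signalling receptor VEGFR2, measured 113, 133 and 81.9 CPM in the floxed and 243, 169 and 79.6 CPM in the knockout libraries. Its log2 fold change was 0.59 (SE 0.41, 95% interval -0.38 to 1.55). Flt1, VEGFR1, which binds the ligand with high affinity and restrains signalling, measured 144, 289.7 and 182 CPM against 445, 203 and 87.5 CPM. The coreceptor Nrp1, which non-endothelial cells of the heart also express, had one of the narrowest ranges of the 37, at 103, 65.6 and 87.4 CPM in the floxed and 83.0, 93.6 and 72.9 CPM in the knockout libraries, with a log2 fold change of -0.03 (95% interval -0.53 to 0.46). Knockout library 1 was thus the highest of the 6 for Kdr and Flt1 and in the middle for Nrp1.

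The 6 capillary genes spread widely among the knockout libraries, where the highest library was 3.50 to 46.4 times the lowest, against 1.25 to 3.63 times among the floxed libraries. Knockout library 1 was the highest and knockout library 3 the lowest for all 6, and 0 of the 6 were called, with a median log2 fold change of 0.28. Car4 (chromosome 11, 84957786 to 84966044, plus strand, GRCm38), a carbonic anhydrase anchored to the capillary surface, measured 33.7, 122 and 76.0 CPM in floxed libraries 1, 2 and 3. In knockout libraries 1, 2 and 3 it measured 249.95, 20.2 and 5.39 CPM, from 3939, 386 and 108 counts. The highest knockout library was 46.4-fold above the lowest, and the floxed libraries lay between knockout libraries 1 and 2. For Car4 the log2 fold change was 0.25 (95% interval -2.63 to 3.13, edgeR adjusted p = 0.986), while limma-voom, which averages logs, gave -1.23. Without knockout library 1 it was -2.62, with an edgeR adjusted p of 0.102.

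Rgcc, a cell cycle regulator enriched in capillary endothelium, measured 73.6, 197 and 129 CPM in the floxed and 387, 71.2 and 39.5 CPM in the knockout libraries. Gpihbp1, which carries lipoprotein lipase to the capillary lumen, measured 181, 299 and 270.4 CPM against 604, 164 and 53.5 CPM. Aqp1, the water channel of capillary endothelium and red cells, measured 522, 759.7 and 538 CPM against 1125, 439 and 135 CPM. For these genes, as for Car4, knockout libraries 2 and 3 both lay below every floxed library. Fabp4 measured 863, 1078 and 993 CPM in the floxed and 2561, 968 and 308 CPM in the knockout libraries, of which library 2 lay inside the floxed range. Ly6c1, a surface antigen of mouse endothelium, measured 364, 586 and 506 CPM against 1131, 587 and 323 CPM, with reads that may be shared with its nearly identical paralogue Ly6c2, so its level is uncertain. Ly6c2 itself measured 40.05, 14.0 and 39.3 CPM in the floxed and 24.4, 196 and 151 CPM in the knockout libraries, which is another order.

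Set against Pecam1 in the same library, which removes the scaling between libraries, the capillary genes still differed. Car4 amounted to 13.7%, 43.2% and 31.7% of the Pecam1 CPM in floxed libraries 1, 2 and 3 and to 62.9%, 6.37% and 3.30% in knockout libraries 1, 2 and 3. Gpihbp1 amounted to 73.3%, 106% and 113% in the floxed and 152%, 51.7% and 32.7% in the knockout libraries. Aqp1 amounted to 212%, 269% and 224% against 283%, 138% and 82.6%. In knockout libraries 2 and 3 these ratios were below those of every floxed library, and in knockout library 1 they were above. Ly6c1 had a narrower range, from 147% to 285% over the 6 libraries, and its ratios in knockout libraries 2 and 3, 185% and 197%, were inside the floxed range.

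**Figure D2:**
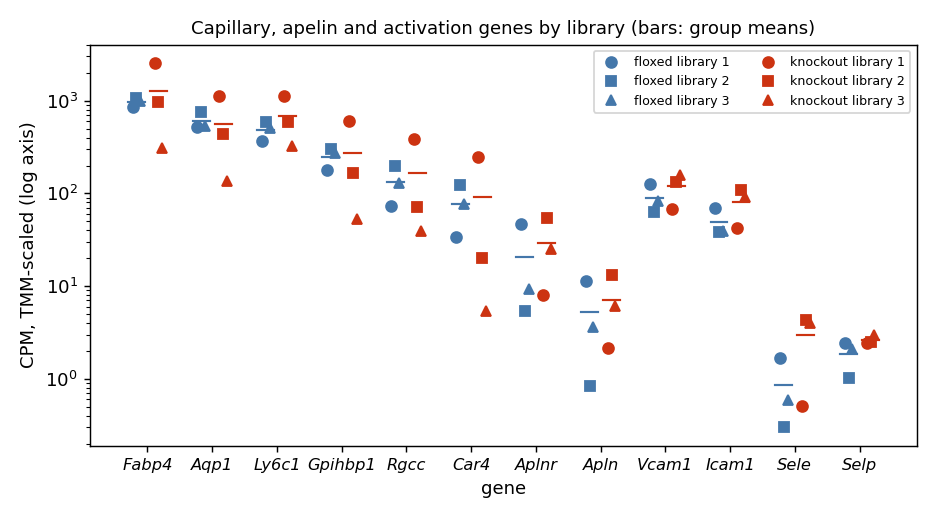
CPM on a log axis for the capillary, apelin and activation genes, with 1 symbol per library, blue for floxed and red for knockout, and a bar at each group mean. For Car4 the knockout libraries run from 5.39 to 249.95 CPM around the floxed range, and for Icam1 and Sele knockout libraries 2 and 3 lie above all floxed libraries while knockout library 1 does not.

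Per unit of length, all capillary genes but Car4 were also the most abundant of the 37. The deposited FPKM averaged 286 ± 57.8 for Ly6c1, 229 ± 42.4 for Aqp1, 216 ± 17.1 for Fabp4, 143 ± 61.7 for Rgcc and 96.9 ± 21.2 for Gpihbp1 in the floxed libraries (SD, n = 3), the first 5 in the order of levels. Egfl7 and Eng followed at 79.7 ± 6.41 and 75.6 ± 10.3 FPKM, and Pecam1 stood at 40.9 ± 2.55 FPKM. Neighbours in this order, such as Aqp1 and Fabp4 or Egfl7 and Eng, differed by less than their spread. The lowest levels were those of Selp and Sele, at 0.423 ± 0.182 and 0.300 ± 0.257 FPKM.

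Among arterial genes, Sox17 had the widest range. Sox17, a transcription factor required for arterial fate, measured 49.6, 99.4 and 56.1 CPM in the floxed and 197, 74.0 and 22.6 CPM in the knockout libraries, with a log2 fold change of 0.51 (95% interval -1.14 to 2.17). Dll4, the Notch ligand of arteries and sprouting tips, measured 34.9, 41.3 and 27.4 CPM against 55.8, 52.8 and 15.2 CPM. Efnb2, the arterial ephrin, measured 36.0, 32.8 and 27.0 CPM against 39.4, 36.0 and 18.6 CPM, with a log2 fold change of -0.03. All 3 were highest in knockout library 1 and lowest in knockout library 3, and 0 were called.

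Venous and lymphatic genes varied less. Vwf, the blood clotting factor stored in endothelium and strongest in larger and venous vessels, had the lowest log2 fold change of the 37, at -0.37 (SE 0.36, 95% interval -1.22 to 0.49). Its floxed libraries lay within 154 to 170.0 CPM, while the knockout libraries 1, 2 and 3 measured 197, 101 and 73.3 CPM. Without knockout library 1 the value was -0.89, with an edgeR adjusted p of 0.0675, the smallest of any endothelial gene under any setting tried. Nr2f2, the venous transcription factor COUP-TFII, measured 23.2, 26.0 and 23.8 CPM in the floxed and 34.7, 31.7 and 17.9 CPM in the knockout libraries. Plvap, which forms the diaphragms of fenestrated and venous endothelium, measured 77.1, 44.8 and 54.7 CPM against 52.3, 74.3 and 70.04 CPM, so its knockout libraries lay within the floxed range. Prox1, the lymphatic master factor that heart muscle cells also express, measured 10.3, 20.7 and 13.8 CPM against 16.4, 7.75 and 15.7 CPM, with a log2 fold change of -0.16.

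The apelin receptor gene and its ligand varied widely in both genotypes. Aplnr (chromosome 2, 85136225 to 85139923, plus strand, GRCm38), the receptor, measured 47.2, 5.34 and 9.35 CPM in floxed libraries 1, 2 and 3 and 7.93, 54.03 and 25.0 CPM in knockout libraries 1, 2 and 3. Apln, the ligand, which sprouting endothelial tip cells make, measured 11.4, 0.840 and 3.64 CPM against 2.16, 13.2 and 6.09 CPM, from 14 to 253 counts. Both were highest in knockout library 2, next in floxed library 1 and lowest in floxed library 2. The floxed libraries differed 8.84-fold for Aplnr and 13.6-fold for Apln. The log2 fold changes were 0.49 (95% interval -1.70 to 2.67) and 0.43 (95% interval -1.78 to 2.64). Without floxed library 1 the value was 1.98 for Aplnr, and without knockout library 2 it was -0.33.

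The 4 activation genes had positive log2 fold changes with a median of 0.61, and 0 were called. Sele (chromosome 1, 164048234 to 164057677, plus strand, GRCm38), E-selectin, which activated endothelium makes to slow passing leukocytes, had the largest value of the 37. It measured 1.66, 0.300 and 0.598 CPM in the floxed and 0.508, 4.35 and 3.99 CPM in the knockout libraries, from 32, 5 and 11 counts and from 8, 83 and 80 counts. Knockout libraries 2 and 3 were above every floxed library, and knockout library 1 was within the floxed range. The log2 fold change was 1.78 (SE 0.89, 95% interval -0.32 to 3.87, edgeR adjusted p = 0.766). Icam1, a ligand for leukocyte beta2 integrins, measured 70.07, 38.7 and 39.3 CPM against 42.6, 109 and 90.7 CPM, with a log2 fold change of 0.71 (95% interval -0.22 to 1.65). Vcam1, a ligand for the integrin VLA-4, measured 125, 62.6 and 83.3 CPM against 68.1, 132 and 159 CPM. Selp, P-selectin, which endothelium and platelets store, measured 2.44, 1.02 and 2.12 CPM against 2.41, 2.51 and 3.00 CPM. For all 4 genes floxed library 2 was the lowest of the floxed libraries, and knockout libraries 2 and 3 were above all floxed libraries.

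By class, the libraries took nearly opposite orders for capillary and activation genes. The median level of the capillary genes, as log2 CPM minus the floxed mean, was -0.41, 0.32 and 0.08 in floxed libraries 1, 2 and 3 and 1.35, -0.51 and -1.90 in knockout libraries 1, 2 and 3. The activation genes stood at 0.54, -0.59 and -0.12 in the floxed and -0.25, 0.90 and 0.90 in the knockout libraries. The pan-endothelial genes stood at 0.07, 0.10 and -0.25 against 0.80, 0.45 and -0.65, the arterial genes at 0.04, 0.28 and -0.23 against 0.71, 0.18 and -1.16, and the venous genes at -0.04, 0.10 and -0.05 against 0.31, 0.37 and -0.44. Relative to the pan-endothelial median of the same library, the capillary level was 0.55 in knockout library 1, -0.96 in knockout library 2 and -1.25 in knockout library 3, against -0.48, 0.22 and 0.33 in the floxed libraries. The activation level on that scale was -1.05, 0.45 and 1.56 in the knockout libraries and 0.48, -0.69 and 0.13 in the floxed libraries.

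**Figure D3:**
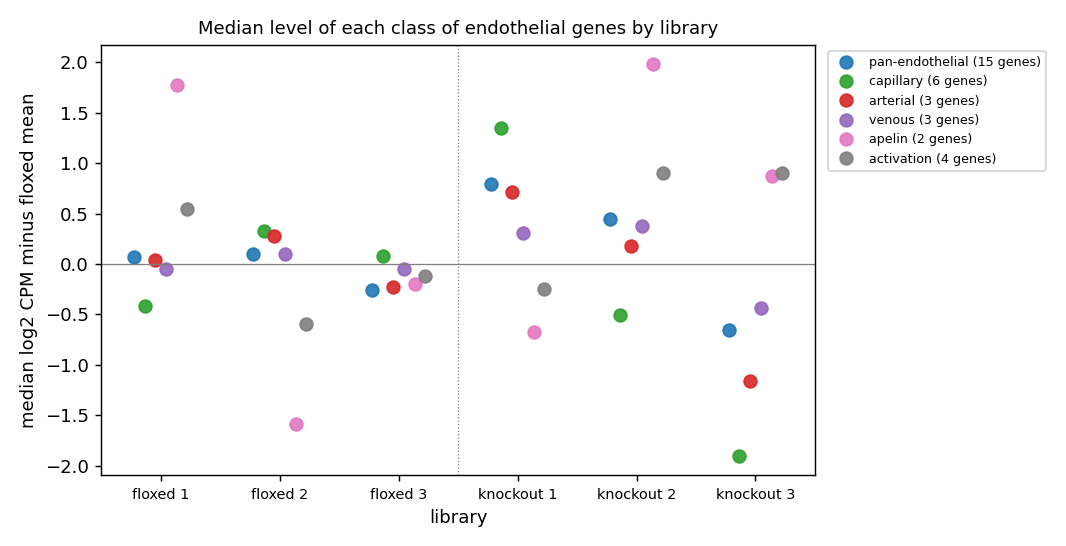
Median log2 CPM minus the floxed mean over the genes of each class (vertical axis) in each of the 6 libraries, 1 dot per class. The capillary dot falls from 1.35 in knockout library 1 to -1.90 in knockout library 3, and the activation dot is at 0.90 in knockout libraries 2 and 3.

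Which genes separated the genotypes depended on the library left out, although 0 of the 37 were called in each of these 6 fits. Without knockout library 1, Aqp1, Car4, Gpihbp1, Rgcc and Vwf were lower and Icam1, Sele, Selp and Vcam1 higher in both remaining knockout libraries than in any floxed library. These were 5 and 4 of the 37, where 18.3% of all genes were lower and 19.4% higher without overlap in that fit. Without knockout library 3, 15 genes were higher and 0 lower, among them Pecam1, Cdh5, Kdr, Tek, Tie1, Eng, Erg and Sox18, where 12.4% of all genes were higher. In that fit 12 of the 37 were higher with an edgeR p under 0.05 before adjustment, where 9.00% of all genes reached that p in either direction. Without knockout library 1, 6 of the 37 reached that p, 2 of them higher, where 19.0% of all genes did. In the other leave-out fits 0 to 3 of the 37 did, where 3.17% to 5.82% of all genes did.

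**Figure D4:**
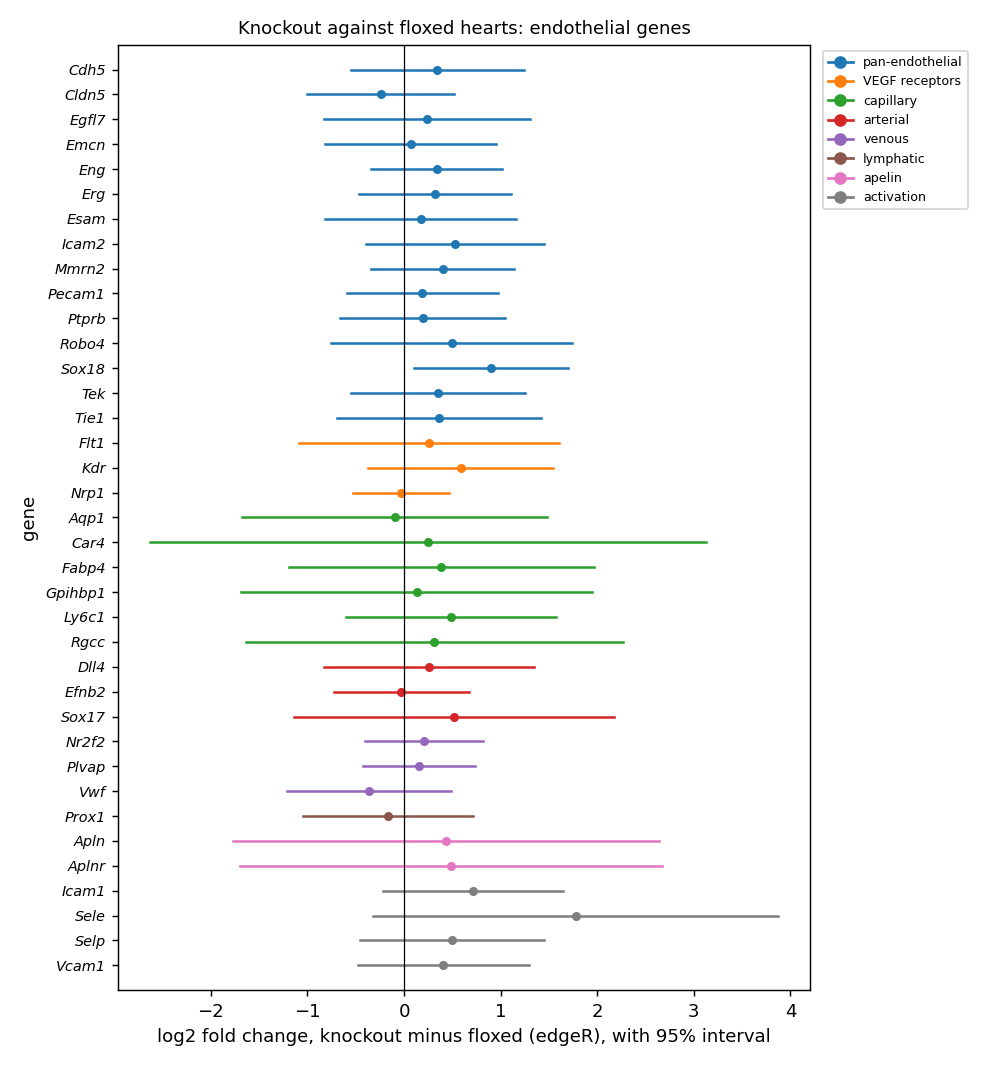
edgeR log2 fold change of each endothelial gene, knockout minus floxed (dot), with its 95% interval (line) and coloured by class. Every interval but that of Sox18, which runs from 0.10 to 1.69, spans 0, and that of Car4 is the widest.

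Promoters are shown for genes whose levels moved together across libraries: Car4 and Rgcc for the capillary genes, Apln for the apelin pair, and Sele and Icam1 for the activation genes. The windows hold 250 bases before to 50 after the start site, from RefSeq on GRCm38.p6, 5′ to 3′ on the gene's strand, in the order chr11:84957504-84957803 (plus), chr14:79301586-79301885 (minus), chrX:48034804-48035103 (minus), chr1:164047984-164048283 (plus) and chr9:21015690-21015989 (plus). Capitals mark the motif AGGAAG, the TATA box motif TATAAA and the AP-1 motif TGACTCA, each searched on both strands. AGGAAG is a sequence that ETS factors such as Erg can bind but not their only one, and other forms were not searched.
Car4: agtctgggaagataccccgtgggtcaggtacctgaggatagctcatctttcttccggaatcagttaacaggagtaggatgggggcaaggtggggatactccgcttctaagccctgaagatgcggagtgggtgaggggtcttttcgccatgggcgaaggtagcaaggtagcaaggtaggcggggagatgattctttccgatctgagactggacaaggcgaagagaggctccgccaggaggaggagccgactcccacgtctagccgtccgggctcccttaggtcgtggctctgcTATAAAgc
Rgcc: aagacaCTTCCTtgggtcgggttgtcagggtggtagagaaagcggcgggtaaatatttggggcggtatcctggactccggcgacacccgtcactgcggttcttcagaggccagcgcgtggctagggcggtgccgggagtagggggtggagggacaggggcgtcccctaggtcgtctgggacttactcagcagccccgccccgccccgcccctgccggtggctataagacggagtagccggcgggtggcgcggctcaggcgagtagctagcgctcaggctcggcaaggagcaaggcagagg
Apln: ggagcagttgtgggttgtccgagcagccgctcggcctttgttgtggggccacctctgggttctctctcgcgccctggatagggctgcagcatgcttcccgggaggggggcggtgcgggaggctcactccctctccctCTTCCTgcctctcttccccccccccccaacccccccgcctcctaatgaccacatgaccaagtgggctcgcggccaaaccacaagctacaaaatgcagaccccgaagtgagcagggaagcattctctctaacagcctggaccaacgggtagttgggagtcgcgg
Sele: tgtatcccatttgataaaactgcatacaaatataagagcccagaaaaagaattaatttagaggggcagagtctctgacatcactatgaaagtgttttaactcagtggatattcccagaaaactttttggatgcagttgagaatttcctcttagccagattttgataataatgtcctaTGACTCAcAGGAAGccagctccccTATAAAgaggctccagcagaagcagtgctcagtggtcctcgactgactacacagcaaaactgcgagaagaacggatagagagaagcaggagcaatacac
Icam1: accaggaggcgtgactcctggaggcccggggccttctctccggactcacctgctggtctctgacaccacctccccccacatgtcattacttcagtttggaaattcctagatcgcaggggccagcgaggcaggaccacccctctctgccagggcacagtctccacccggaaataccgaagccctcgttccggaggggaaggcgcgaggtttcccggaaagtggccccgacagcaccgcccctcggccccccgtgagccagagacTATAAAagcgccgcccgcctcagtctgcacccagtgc
The table held windows for 23 of the 37 genes, 29 windows in all. AGGAAG occurred in 16 of the 29, or 55.2%, and in 35.4% of all 32851 windows. TATAAA occurred in 8 of the 29, or 27.6%, against 13.6%, and TGACTCA in 1, that of Sele, against 5.20%. The TATAAA match began 42 bases after the start site for Car4, 13 after it for Icam1 and 49 before it for Sele. The Sele window held all 3 motifs, with no overlap between them. These matches describe the letters of the windows and not bound sites.

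Further vascular genes, from lists that do not include the 37, were counted for the same extremes. Some of them are not particular to endothelium. Over all genes tested, 26.7% were highest in knockout library 1 and 23.7% lowest in knockout library 3. Differences between the lists were not tested. Of 28 further endothelial surface, junction and transcription factor genes, 0 were called, 24 log2 fold changes were positive with a median of 0.29, 17 genes were highest in knockout library 1 and 20 lowest in knockout library 3. Their summed level was 2561, 2781 and 2248 CPM in the floxed and 4377, 3178 and 1760.3 CPM in the knockout libraries. Ets1, an ETS factor of endothelium and lymphocytes, had the smallest p, with 79.0 ± 24.6 CPM with floxed alleles and 127 ± 26.8 CPM after knockout (SD, n = 3). Its libraries overlapped, with 107 CPM in floxed library 1 and 96.6 CPM in knockout library 1 (edgeR adjusted p = 0.684). Of 13 further capillary and lipid uptake genes 0 were called, with a median of 0.24, and Lpl, the lipoprotein lipase that Gpihbp1 binds, measured 1327, 3888 and 2282 CPM against 3194, 1273 and 756 CPM. Lpl was thus also lowest in knockout library 3, while floxed library 2 was its highest. Of these 13 genes 7 were highest in knockout library 1 and 10 lowest in knockout library 3.

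Of 13 further VEGF and angiopoietin genes 0 were called, with a median of -0.25. Of these 13, 2 were highest in knockout library 1 and 4 lowest in knockout library 3, where 26.7% and 23.7% of all genes were. Vegfd, a ligand of the lymphatic VEGF receptor, measured 34.8, 18.2 and 34.2 CPM in the floxed and 17.3, 14.3 and 18.4 CPM in the knockout libraries, which overlapped, with a log2 fold change of -0.80 (edgeR adjusted p = 0.630). Flt4, the lymphatic VEGF receptor VEGFR3, measured 25.2, 24.1 and 27.6 CPM in the floxed and 38.6, 44.4 and 42.8 CPM in the knockout libraries. Its libraries did not overlap, and its log2 fold change was 0.71 (SE 0.15, edgeR adjusted p = 0.529). Mmrn1, a marker of lymphatic endothelium, measured 6.86, 3.48 and 8.70 CPM against 12.2, 15.9 and 16.9 CPM, with no overlap and a log2 fold change of 1.24 (edgeR adjusted p = 0.578). From the same list of venous and lymphatic genes, Reln also had no overlap, with a log2 fold change of 0.57 (edgeR adjusted p = 0.766). Ccl21a overlapped, with a log2 fold change of 1.43 (edgeR adjusted p = 0.709). The lymphatic markers Lyve1 and Pdpn, named after their values were seen, overlapped between genotypes, with log2 fold changes of -0.19 and 0.10. Of the 9 further venous and lymphatic genes 0 were called, with 2 at an unadjusted p under 0.05 and a median of 0.10. For 2 the knockout libraries lay above all floxed ones, where 11.8% of all genes did not overlap in either direction. In this list 2 were highest in knockout library 1 and 2 lowest in knockout library 3. Of the 17 further arterial and Notch genes 0 were called, with a median of 0.17, and 11 were highest in knockout library 1 and 10 lowest in knockout library 3. Of the 7 endocardial markers 6 were tested and 0 called, with a median of -0.07, and 2 were highest in knockout library 1 and 1 lowest in knockout library 3.

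Among the knockout libraries, the summed levels of inflammatory and leukocyte genes were lowest in library 1 and higher in libraries 2 and 3. The activation genes shared this order, and most of the 37 did not. The inflammatory sum of knockout library 1 and the leukocyte marker sums of knockout libraries 2 and 3 lay within the floxed ranges. The 13 tested genes of 15 in the inflammatory response list, many of which leukocytes also make, summed to 557 to 837 CPM in the floxed and to 681, 1607 and 1442 CPM in knockout libraries 1, 2 and 3, while 0 were called and the log2 fold changes had a median of 0.59. The chemokine gene Cxcl9 measured 217, 47.3 and 85.8 CPM against 136, 672 and 627 CPM. The 10 leukocyte partners of endothelial adhesion molecules, such as Itgal, the integrin chain that binds Icam1, had a median of 0.87 with 0 called and summed to 355 to 568 CPM in the floxed and 262, 969 and 1087 CPM in the knockout libraries. The 16 leukocyte markers had a median of 1.02 with 0 called and summed to 3147 to 6405 CPM and 2040.2 to 6069 CPM, and the general marker Ptprc held 2600, 1031 and 1558 counts in the floxed and 938, 4900 and 5828 counts in the knockout libraries. Ptprc was thus high in the libraries where Icam1 and Vcam1 were high. Of the 16 markers 11 had positive and 5 negative log2 fold changes. The T cell genes Cd8a and Cd3d stood at 2.45 and 2.33. The negative ones were the macrophage genes Cd68, Lyz2, C1qb, Adgre1 and C1qa, at -0.65, -0.41, -0.27, -0.18 and -0.14. In knockout library 1 these 5 lay below every floxed library. In knockout libraries 2 and 3 they lay within the floxed range, except Cd68 in knockout library 3, which was lower. Other macrophage and monocyte genes of the list were not negative: Csf1r and Fcgr1 stood at 0.0117 and 0.0765, and Ccr2 and Itgax were higher. All these macrophage and monocyte genes were named after their values were seen. The 12 cell division markers summed to 47.3 to 91.2 CPM against 63.5, 393 and 399 CPM, with a median of 1.99 and 0 called.

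Other sources of single genes were also measured. Fabp4 is a gene of fat cells too. Of their markers Adipoq held 0 to 13 counts per library, Plin1 0 to 5 and Lep 0 in every library, beside 6178 to 40355 counts of Fabp4. Cfd held 10, 1 and 4 counts in the floxed and 41, 0 and 0 in the knockout libraries. Cidec held 2, 5 and 0 against 10, 2 and 0 counts, so both were highest in knockout library 1. Adipoq, Plin1, Car3 and Retn were not highest there. Of 8 adipocyte markers only Lipe, which muscle also expresses, was tested. Lipe measured 67.8, 154 and 118 CPM in the floxed and 211, 92.8 and 45.0 CPM in the knockout libraries. Like Fabp4 it was highest in knockout library 1 and lowest in knockout library 3. The 8 erythroid markers summed to 6.79 to 17.05 CPM in the floxed and to 51.1, 349 and 407 CPM in knockout libraries 1, 2 and 3. Aqp1 was highest in knockout library 1 and lowest in knockout library 3, and both had a higher erythroid sum than any floxed library. The 7 platelet markers with a row summed to 71.8 to 96.9 CPM in the floxed and 38.1 to 47.7 CPM in the knockout libraries. Pf4, platelet factor 4, made up most of the floxed sum, and measured 67.8 ± 13.1 and 29.1 ± 10.01 CPM (SD, n = 3). Of the 6 platelet markers tested 0 were called, and 5 log2 fold changes were negative and 1 positive. The knockout libraries lay below all floxed libraries for 2 of the 6, where 11.8% of all genes did not overlap in either direction. Selp lay above the floxed range in knockout libraries 2 and 3. The 13 pericyte and smooth muscle markers summed to 795 to 1074 CPM against 1339, 1069 and 851 CPM. The 12 cardiomyocyte markers summed to 20116 to 29894 CPM against 26882, 24368 and 12641 CPM. Myh6 alone held 5703 CPM in knockout library 2, against 1442 to 1843 CPM in the other libraries. Of the 12, 0 were called, and 2 log2 fold changes were positive and 10 negative. For 1 of them, Nkx2-5, the knockout libraries lay below all floxed ones. The 11 fibroblast markers summed to 5468 to 10545 CPM against 4625, 5857 and 12656 CPM. The collagen genes Col1a1, Col1a2 and Col3a1, named for their abundance, made up most of the fibroblast sum, and the fibroblast marker Dpep1 measured 39.2 CPM in knockout library 3 against 97.6 to 248 CPM in the floxed libraries. The 7 mesothelial markers summed to 10.9 to 30.9 CPM over all 6 libraries. The part of these cell types, and of the mitochondrial share, in the endothelial levels was not tested.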

How the data were processed

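The deposited files hold raw, whole-number read counts for 35618 genes and, computed by the authors, FPKM for 35606 of these. The submitters' processing notes list the build mm10, featureCounts 1.6.2 and HISAT2 2.1.0, along with Cufflinks, GATK 4.0.11.0, DESeq2 1.22.1, StringTie 1.3.4d and fastp 0.19.3, without a role for each, and the libraries were stranded, per the labels' protocols. The sources used here do not say whether counting used strand or how reads matching several genes were treated. Exons of 10 of the 37 genes overlap another annotated gene. Gene positions were taken from GENCODE M21 (GRCm38) by gene ID, since 0 of the 37 start positions in the deposited table matched it.

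These counts were tested in R 4.3.3 with edgeR 4.0.16 (filterByExpr at a minimum count of 10, TMM, robust quasi-likelihood F test, genotype as the only term), which kept 16591 genes with 99.8% of the counts. A gene was called when its p, adjusted over all genes by Benjamini-Hochberg, was under 0.05. Standard errors and 95% intervals come from the F statistic. Levels by class are medians of log2 CPM (prior count 2). Precision is limited by 3 libraries per genotype: the smallest p of an exact two-sided permutation test would be 0.1, so none is given. The p-values set the difference between genotypes against the spread between these libraries. Since no label ties a library to an animal, that spread may not be the spread between animals. The code was tested on simulated data.

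Alternatives were RLE normalisation, no filter, a mean of at least 1 CPM, library sizes without mitochondrial genes and Gsdmd, DESeq2 1.42.0, limma-voom (limma 3.58.1), limma on log2 FPKM with pseudocounts of 1 and 0.1, a replicate block, leaving out 1 library at a time, and a log2 fold change of at least 1. The genes, their classes and the other lists were chosen with earlier results of these data known. All 37 genes could be named, and from each other list up to 4 genes with the smallest p, with defining markers of other cell types named for their level. Figures were drawn with matplotlib 3.10.9.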

Additional observations from a re-analysis of the deposited data

How the results depend on the processing

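Under all alternatives run, 0 of the 37 endothelial genes were called. The call count over all genes was 2, and it was 10 with no filter on low counts, 1 with library sizes that leave out mitochondrial genes and Gsdmd (Gsdmd is then not tested), 243 with DESeq2, 1 with limma-voom, 0 with the replicate number as a block and 0 to 500 without 1 library at a time, the highest without knockout library 1. The median log2 fold change of the 37 ranged from -0.09 without knockout library 1 to 0.62 without knockout library 3. On the FPKM scale, with a pseudocount of 1 or 0.1, 1 endothelial gene had no overlap between genotypes (Sox18), where 10.3% of all genes had none. Without 1 library at a time 0 to 15 had none, with 15 higher without knockout library 3, where 12.4% of all genes were higher, and 4 higher and 5 lower without knockout library 1, where 19.4% and 18.3% were.

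RLE normalisation, both count filters, the other library sizes and DESeq2 turned the direction of 0 of the 37 log2 fold changes. Methods that average logs turned 5: with limma-voom, FPKM + 1 and FPKM + 0.1, Car4 was -1.23, -1.02 and -1.15, Emcn -0.0757, -0.0494 and -0.0641, Fabp4 -0.0614, -0.0774 and -0.0799, Gpihbp1 -0.46, -0.46 and -0.47, and Rgcc -0.23, -0.24 and -0.25. Same-numbered libraries of the genotypes deviated from their group means with correlations of -0.57, -0.31 and 0.04. These values show no pairing by number, but with 3 libraries per genotype they cannot exclude one. With the replicate block Car4 was -1.67, Emcn -0.0695, Fabp4 -0.0979, Flt1 -0.0160, Gpihbp1 -0.55 and Rgcc -0.44. Without 1 library at a time 25 genes took both signs, and their log2 fold changes ranged as follows: Apln -0.36 to 1.67, Aplnr -0.33 to 1.98, Aqp1 -1.10 to 0.36, Car4 -2.62 to 0.80, Cldn5 -0.47 to 0.0469, Dll4 -0.0436 to 0.65, Efnb2 -0.25 to 0.24, Egfl7 -0.16 to 0.62, Emcn -0.39 to 0.40, Erg -0.0064 to 0.61, Esam -0.36 to 0.51, Fabp4 -0.64 to 0.85, Flt1 -0.52 to 0.66, Gpihbp1 -1.22 to 0.62, Ly6c1 -0.11 to 0.82, Nrp1 -0.20 to 0.12, Pecam1 -0.11 to 0.48, Plvap -0.0121 to 0.39, Prox1 -0.38 to 0.14, Ptprb -0.25 to 0.48, Rgcc -1.29 to 0.78, Robo4 -0.22 to 0.89, Sox17 -0.52 to 0.98, Tek -0.0463 to 0.68, Tie1 -0.0865 to 0.73. The lowest value came without knockout library 1 for most of them, as for Car4, and the cause was not tested. With 3 libraries per genotype of 17279147 to 18875902 counts, the coefficient of variation between libraries was 33.3% over all genes, and depth was lowest for Sele, at 5 to 83 counts.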
